A study of Mus musculus with 12 samples.

Results

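The response of mouse bone marrow neutrophils to granulocyte colony-stimulating factor (G-CSF) was followed here in cells labelled as lacking Socs3 in the myeloid lineage. Of the 12 libraries of the series, 6 carry the label LysMcre Socs3fl/fl, and these 6 were chosen by that label: 3 from cells kept without G-CSF and 3 from cells given G-CSF. In such mice both Socs3 alleles are flanked by loxP sites, and a Cre recombinase driven from the lysozyme locus, which is active in neutrophils, monocytes and macrophages alike, is meant to delete the flanked stretch. The other 6 libraries come from Socs3fl/fl mice without the Cre, 3 without and 3 with G-CSF, and are called floxed. All cells were sorted from femoral marrow as CD45, CD11b and Ly6G positive, then cultured for 8 h with G-CSF at 10 ng/ml or without it, in medium with serum. Whether the 3 libraries of 1 group stem from different mice is not in the labels, so every p-value below reflects library-to-library spread that may be technical. For the 3 LysMcre-labelled G-CSF libraries the title names LysMcre, G-CSF and also untreated and leaves out Socs3fl/fl, while the condition and genotype entries of the same libraries give G-CSF and LysMCre Socs3fl/fl. Values are normalized counts, the deposited read counts per gene divided by 1 size factor per library. A gene was tested when its mean over all 12 libraries was at least 10, which kept 13915 of 13935 rows. No deposited row held fewer than 121 reads over the 12 libraries, so shares of all genes are shares of these rows.

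G-CSF is the main cytokine of granulopoiesis. It binds a receptor, encoded by Csf3r, that has no enzyme activity of its own and works through the Janus kinases and through STAT proteins, of which STAT3 is the best known in neutrophils. STAT dimers bind palindromic sites near their target genes, and among those targets is Socs3, whose protein docks on the activated receptor and stops the signal, so that the pathway carries its own brake.

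The letters of such sites are shown first, in the 250 bases before the start of 4 genes whose RNA rose with G-CSF. They were taken from RefSeq promoter windows of build GRCm38.p6 and read 5′ to 3′ on the strand of the gene, with each TTCNNNGAA match in capitals. These 4 were picked, after their sequences and values were seen, from the genes named below whose window held a match: Socs3 (chr11:117969367-117969616, minus strand), the transglutaminase gene Tgm1 (chr14:55713493-55713742, minus strand), the metalloreductase gene Steap4 (chr5:7960222-7960471, plus strand) and the interleukin 1 decoy receptor gene Il1r2 (chr1:40085843-40086092, plus strand).
Socs3: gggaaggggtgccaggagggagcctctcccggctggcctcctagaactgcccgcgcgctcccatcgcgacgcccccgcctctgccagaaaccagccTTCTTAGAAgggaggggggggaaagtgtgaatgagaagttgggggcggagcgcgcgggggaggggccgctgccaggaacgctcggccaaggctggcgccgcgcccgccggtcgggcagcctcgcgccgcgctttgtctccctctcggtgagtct
Tgm1: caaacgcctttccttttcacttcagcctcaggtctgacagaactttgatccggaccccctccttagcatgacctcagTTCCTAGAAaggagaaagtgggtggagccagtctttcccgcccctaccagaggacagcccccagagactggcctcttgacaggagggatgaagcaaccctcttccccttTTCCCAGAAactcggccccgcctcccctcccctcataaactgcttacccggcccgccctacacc
Steap4: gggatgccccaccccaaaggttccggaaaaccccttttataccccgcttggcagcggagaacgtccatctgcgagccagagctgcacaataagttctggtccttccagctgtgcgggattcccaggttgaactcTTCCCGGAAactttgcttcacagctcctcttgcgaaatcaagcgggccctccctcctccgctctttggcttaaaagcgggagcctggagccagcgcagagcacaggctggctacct
Il1r2: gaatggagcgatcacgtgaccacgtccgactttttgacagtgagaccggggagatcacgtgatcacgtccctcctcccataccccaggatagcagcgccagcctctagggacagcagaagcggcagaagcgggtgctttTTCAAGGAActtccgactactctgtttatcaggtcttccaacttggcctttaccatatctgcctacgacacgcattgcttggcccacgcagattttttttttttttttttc
The match of Socs3 began 154 bases before the start, that of Steap4 116 and that of Il1r2 111 bases before it, while Tgm1 held matches at 173 and at 64 bases before its start. Another RefSeq window of Tgm1, not printed, held no match. TTCNNNGAA reads the same on both strands and can share its last letters with the interferon motif GAAANNGAA. Over windows that also took in the 50 bases after the start, 59 of 409 genes that rose at least 4-fold and had a window held TTCNNNGAA, or 14.4%. The share was 9.62% of 343 genes that fell at least 4-fold and 8.36% of all 9538 tested genes with a window. Of the 15 largest rises named below 2 of the 10 with a window held it. Of the 15 largest falls it was 1 of 9, Mmp23. Cish and Sphk1, also named below and not printed, held it in some or all of their windows. For 4 other motifs, searched on both strands, the shares among rising, falling and all genes were 13.2%, 9.04% and 11.7% for the E-box CACGTG, 11.5%, 7.00% and 6.43% for the AP-1 motif TGANTCA, 4.16%, 1.17% and 3.61% for the cAMP motif TGACGTCA, and 13.2%, 7.87% and 9.10% for GAAANNGAA. Each share counts letters in a window and says nothing of binding.

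The gene named by the genotype label was read in each library before any other. Socs3 (ENSMUSG00000053113.3) stood at 313, 311 and 253 normalized counts in the 3 untreated and at 35984, 37668 and 38354 in the 3 G-CSF libraries labelled LysMcre. Each library with G-CSF lay more than 100 times above each library without it. The log2 difference was 7.00 (SE 0.09, limma adjusted p = 6.20e-17), against 6.44 in floxed libraries, and the difference between these responses was 0.56 (SE 0.13, limma adjusted p = 0.00476). The table gives 1 value per gene, so the flanked exons cannot be read apart and neither the deletion nor the genotype label is checked by this gene; the libraries are called LysMcre-labelled throughout. Lyz2, the lysozyme gene whose locus carries the Cre, went from 5646, 6602 and 5911 to 507, 564 and 637 normalized counts, a log2 difference of -3.41 (SE 0.08, limma adjusted p = 1.53e-14), and these 6 libraries lay below all 6 floxed ones, whose lowest value was 44425. Csf3r, the receptor gene, was among the most abundant transcripts and stood at 73677, 80545 and 59786 without and 146930.0, 154686 and 164192 with G-CSF. Its groups did not overlap, as was so for 67.6% of all genes tested, 33.6% with every G-CSF library higher and 34.0% with every one lower (log2 1.13, SE 0.10, limma adjusted p = 1.30e-07), and the floxed response was 1.09.

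Reads recovered from the deposited rows ran from 19495754 to 26472118 per library, and the full sequencing depth is not known. The reads of a gene are given where a group had few of them. On the first principal component of the log2 values, which held 77.4% of the variance, the 3 LysMcre-labelled G-CSF libraries lay at 82.2 to 83.6, the floxed G-CSF libraries at 34.6 to 39.8, and all 6 untreated libraries between -63.8 and -54.2. Genes of the neutrophil marker list, 13 in number, summed to 9.11% to 10.3% of all normalized counts in the untreated and 7.81% to 8.66% in the G-CSF libraries labelled LysMcre.

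The first question was how much of the measured transcriptome moved with G-CSF in the LysMcre-labelled cells. In limma 8717 of 13915 genes passed an adjusted p of 0.05, or 62.6%, and 9128 had an unadjusted p under 0.05. Of all genes tested 31.1% were called higher (4325) and 31.6% lower (4392). At least 2-fold changes made up 12.0% higher and 12.7% lower, and at least 4-fold changes 4.40% higher (612) and 3.94% lower (548). With the deposited scaling the median difference over all genes was -0.00033 on the log2 scale and the quartiles were -0.49 and 0.47. When each library was scaled to an equal total instead, the median of all genes was -0.26 and the calls were 2864 higher and 6315 lower, so 31.2% of calls were higher against 49.6%. Every direction below is therefore relative to the middle of all genes, and gene lists whose direction turned with the scaling are named as such. The shares of 31.1% and 31.6% are the background against which the counts of each list are read. Members and lists were chosen with earlier results of these data known. That choice can favour an excess over these shares, so the counts are descriptions.

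**Figure D1:**
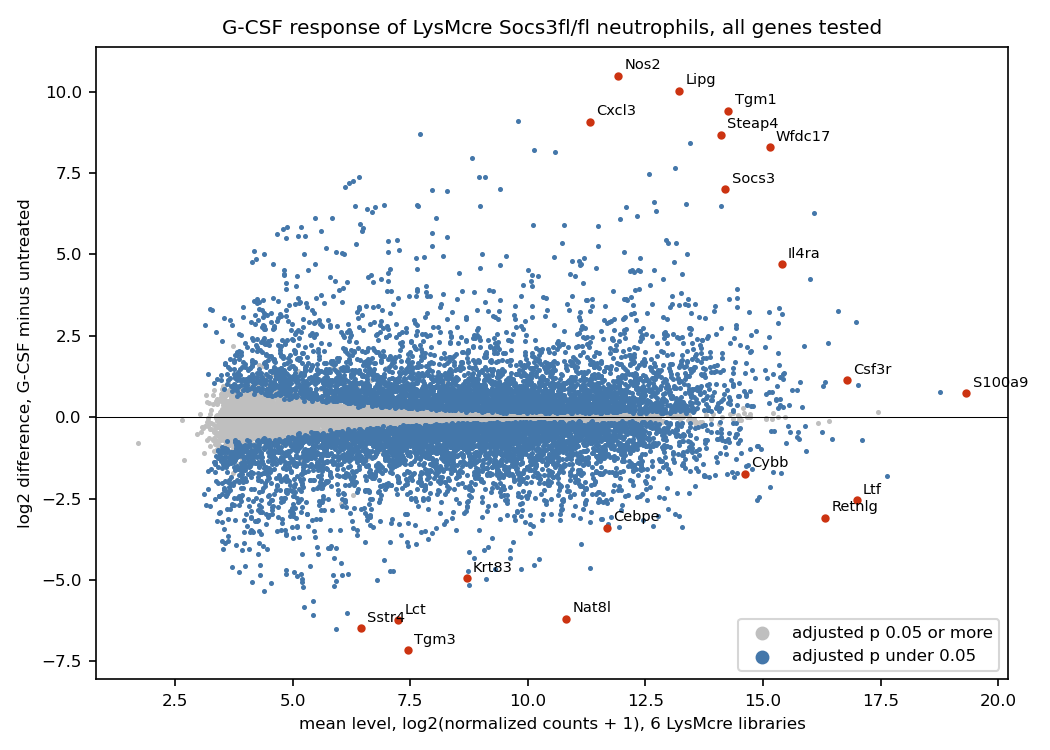
Each point is 1 of 13915 genes; the horizontal axis is the mean level over the 6 LysMcre-labelled libraries as log2(normalized counts + 1) and the vertical axis the log2 difference, G-CSF minus untreated, with genes at a limma adjusted p under 0.05 in blue and 19 genes named in the text in red. Nos2 lies highest at 10.49 and Tgm3 lowest at -7.16, and abundant genes such as Csf3r (1.13), Ltf (-2.56) and Retnlg (-3.08) moved in both directions.

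Among the 15 largest rises were genes of a nitric oxide synthase, lipid, iron and nucleotide enzymes, secreted inhibitors, chemokines and a metalloproteinase. Nos2, the inducible nitric oxide synthase, stood at 6.31, 3.44 and 3.71 normalized counts without G-CSF, from 14 reads in all, and at 6156, 8533 and 8608 with it. The endothelial lipase gene Lipg went from 14.7, 14.6 and 23.2 to 20102, 19244 and 17621. Tgm1, a protein-crosslinking enzyme, went from 68.4, 53.3 and 49.2 to 36651, 40665 and 40694. The untreated and G-CSF libraries of these 3 genes were separated by more than 2 orders of magnitude, with log2 differences of 10.49, 10.03 and 9.42 (SE 0.21, 0.19 and 0.10; limma adjusted p = 3.38e-15, 1.93e-15 and 6.98e-18).

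Steap4, which reduces iron and copper at membranes, rose from 78.9, 89.4 and 86.3 to 33725, 35087 and 36578 normalized counts (log2 8.68, SE 0.07, limma adjusted p = 8.45e-19). Wfdc17, which encodes a small secreted protein of the whey acidic protein fold, rose from 274, 200.3 and 213 to 74677, 67729 and 73286 (log2 8.30, SE 0.13). The neutrophil attractant Cxcl3 rose from 7.36, 9.46 and 8.36 to 4291, 5708 and 5303 (log2 9.08, SE 0.18). In all 3 genes the groups were far apart and the libraries of a group lay close together. The chemokine Ccl4 went from 114, 82.5 and 70.6 to 18411, 17615 and 17759.7 and the metalloproteinase Mmp19 from 76.8, 71.3 and 56.6 to 11443, 12437 and 12733 (log2 7.67 and 7.47). The ectonucleotidase Entpd3, the acute phase protein Saa3, the growth factor binding protein Igfbp6, the phosphatase Ppm1j and the costimulatory ligand Tnfsf9 rose by log2 8.41, 8.21, 8.14, 7.38 and 7.38. Their means with G-CSF were 22425, 2233, 3033, 1083 and 990.4 normalized counts. Sult6b2, a sulfotransferase family member, and Ambp, the precursor of a plasma protease inhibitor, had 8 and 9 reads over the 3 untreated libraries and reached 1649, 1797 and 1818 and 751, 898 and 1037 normalized counts, so a fold is not given for them. All 15 were also called higher in the floxed libraries, where 24.1% of all genes were.

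**Figure D2:**
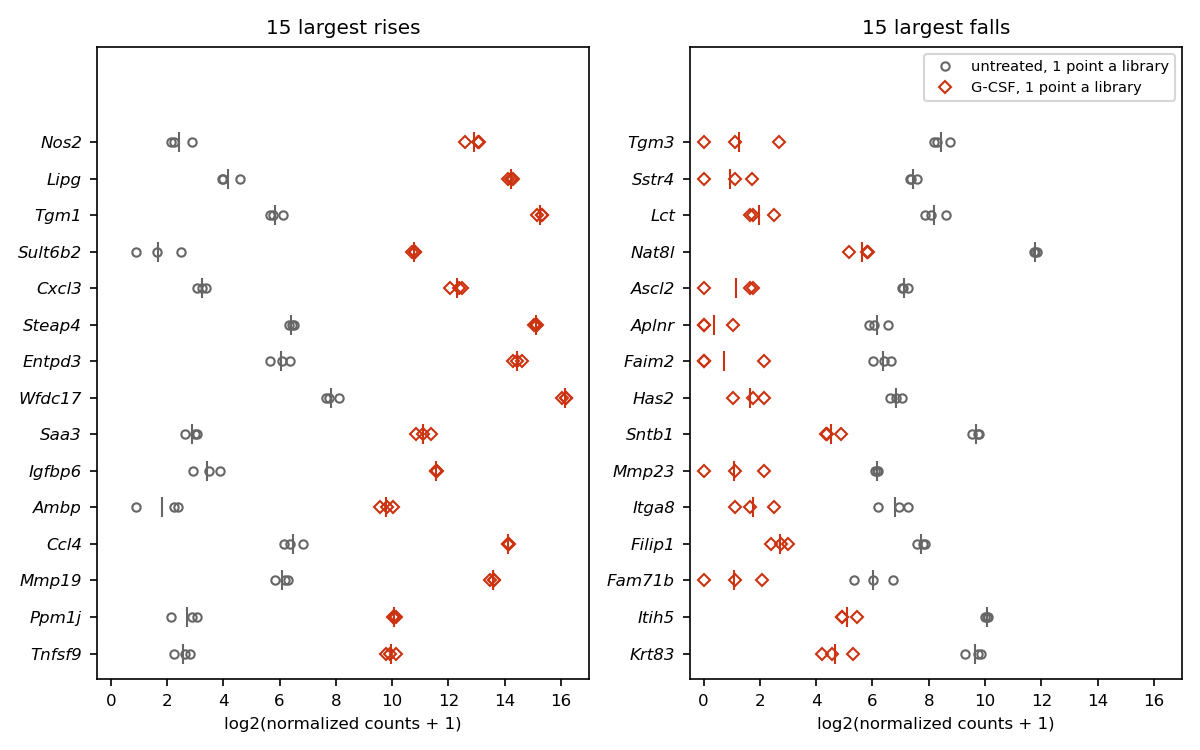
The 15 genes with the largest rises (left) and falls (right) in LysMcre-labelled libraries; the horizontal axis is log2(normalized counts + 1), each circle is 1 untreated library, each diamond 1 G-CSF library, and the upright ticks are means of the log values. Groups that do not overlap were a condition of the choice, and the G-CSF libraries of many falling genes lie at 0 to 3, which is a few reads.

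The 15 largest falls were a mixed set of receptors, enzymes and structural genes, most of them already at modest levels. Nat8l, which makes N-acetylaspartate, was the most abundant of them and went from 3480.0, 3725 and 3437 to 34.7, 55.4 and 56.9 normalized counts (log2 -6.18, SE 0.15, limma adjusted p = 2.98e-14). Itih5, a gene of the inter-alpha-trypsin inhibitor heavy chain family, went from 1086, 1018 and 1106 to 28.9, 29.5 and 42.9, and the syntrophin gene Sntb1 from 869, 878 and 742 to 19.6, 28.3 and 19.3. Every untreated library of these 3 genes lay at least 20 times above every G-CSF library. The hair keratin gene Krt83 fell from 624, 871 and 920.1 to 17.3, 22.4 and 38.6 and the filamin-interacting gene Filip1 from 219, 234 and 188 to 5.78, 7.08 and 4.29 (log2 -4.95 and -5.01). The other 10 had 9 or fewer reads over the 3 G-CSF libraries, so that levels and no folds are given. The transglutaminase Tgm3 stood at 293, 434 and 312 without and 1.16, 0 and 5.37 with G-CSF. For lactase, Lct, the values were 232, 269 and 392 and 4.62, 2.36 and 2.15, and for the somatostatin receptor Sstr4 164, 193 and 159 and 2.31, 1.18 and 0. The transcription factor Ascl2, the apelin receptor Aplnr, the death inhibitor Faim2, the hyaluronan synthase Has2, the integrin Itga8, Mmp23 and Fam71b had untreated means of 139.6, 72.8, 82.8, 114, 116, 70.1 and 69.8 normalized counts and between 1 and 7 reads in all with G-CSF. All 15 were also called lower in the floxed libraries, where 24.6% of all genes were.

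The receptor and its signalling chain came next, because they carry the signal that Socs3 is known to stop. Of 16 genes of the chain 11 rose and 4 fell, with a median log2 difference of 0.83. Of the Janus kinases, which phosphorylate the receptor, Jak3 moved most, from 424, 417 and 410.4 to 8313, 9664 and 9992 normalized counts (log2 4.47, SE 0.10, limma adjusted p = 1.53e-14). Jak2 went from 2369, 2256 and 2139 to 6706, 6883 and 7144 (log2 1.62), while Tyk2 fell (log2 -0.70). Jak1 stood at 15323, 16060.3 and 15289.8 without and 15036, 14912 and 15183 with G-CSF (log2 -0.05, limma adjusted p = 0.439). With equal totals and with quantile normalization Jak1 was called lower. Jak3 overlaps Insl3 on the same strand, which stood at 8.96 without and 183 with G-CSF on average, so their reads may be shared.

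Stat3, the transcription factor most tied to G-CSF signalling, rose from 7470.0, 7452 and 7091 to 27895, 28869 and 29109 normalized counts (log2 1.96, SE 0.06, limma adjusted p = 1.39e-13). Stat5a rose from 962, 941 and 993 to 1670.1, 1736 and 1499 (log2 0.76), and it overlaps Stat3 on the other strand, so reads of the pair cannot be told apart if strand was not used in counting. In both genes the groups were separate, with every G-CSF library higher, which held for 33.6% of all genes tested. Stat5b and the adaptor Grb2 rose by 0.18 and 0.26 with the deposited scaling and were at -0.08 and -0.0041 with equal totals and at -0.08 and -0.06 with quantile normalization. The kinases Lyn and Syk rose by log2 1.39 and 1.21, and the docking protein gene Gab2 by 1.89. The adaptor Shc1 and the exchange factor Sos1 fell, at log2 -0.65 and -0.18; Sos1 lost its call when LysMcre-labelled untreated replicate 2 or 3 or G-CSF replicate 2 was left out. The response exceeded the floxed one in 7 of the 16 genes and in none was it below, against 10.9% and 11.5% of all genes. Their differences between responses were 0.95 for Jak2, 0.90 for Stat5a, 0.53 for Syk, 0.45 for Stat3, 0.45 for Lyn, 0.33 for Gab2 and 0.30 for Jak1, where the floxed libraries fell by 0.35. With equal totals the calls of Gab2 and Jak1 were lost, and Stat5b, Sos1, Shc1 and Tyk2 passed with a response below the floxed one (-0.20, -0.25, -0.27 and -0.31).

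**Figure D3:**
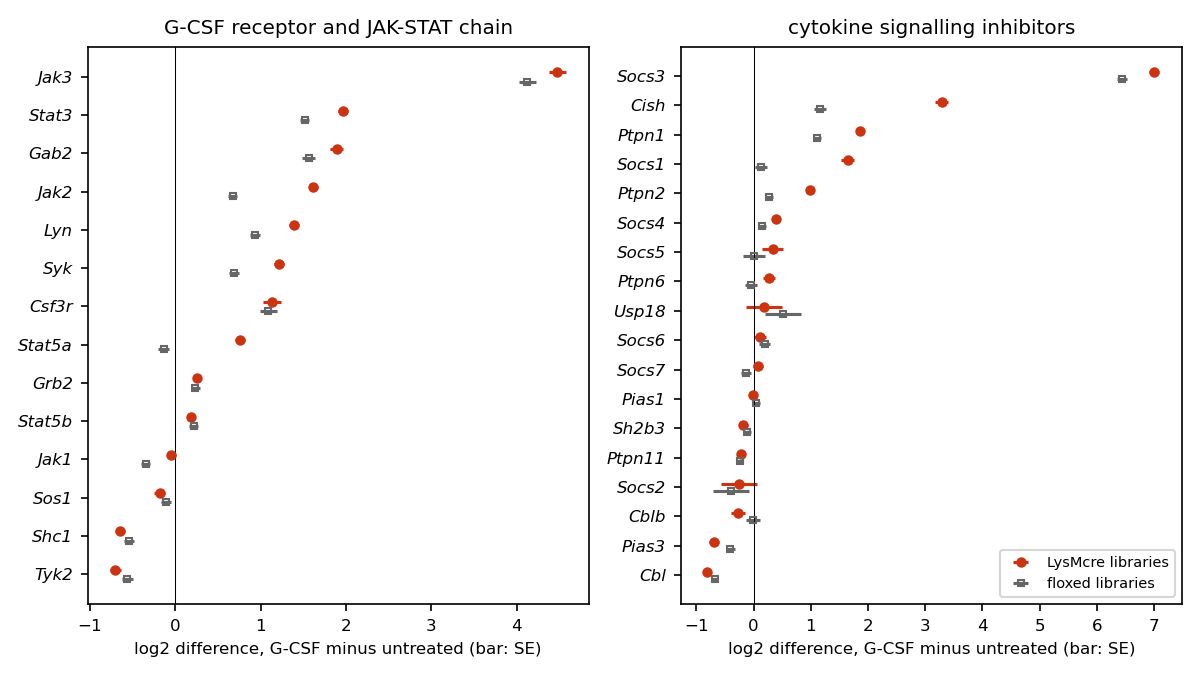
Log2 difference, G-CSF minus untreated, with its SE, for 14 of the 16 genes of the G-CSF receptor and JAK-STAT chain (left) and 18 cytokine signalling inhibitors (right), in LysMcre-labelled (red circles) and floxed libraries (grey squares). Jak2, Stat5a, Cish, Socs1, Ptpn1 and Ptpn2 lie farther right in the LysMcre-labelled libraries, and the points of Csf3r (1.13 and 1.09) lie side by side.

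Inhibitors of cytokine signals were more uneven. Of 18 genes 7 rose and 4 fell with a median of 0.15, but with equal totals 5 rose and 6 fell and the median was -0.12. Cish, a relative of Socs3 that restrains STAT5 signals, went from 262, 222 and 269 to 2155, 2588 and 2624 normalized counts (log2 3.28, SE 0.11, limma adjusted p = 7.13e-13). Socs1, which blocks Janus kinases, went from 103, 126 and 117 to 361, 356 and 367 (log2 1.64). The phosphatases Ptpn1 and Ptpn2, which remove phosphate from Janus kinases and STATs, rose from 6468 ± 159 to 23394 ± 1459.9 and from 516 ± 24.6 to 1022 ± 69.5 (SD, n = 3). These 4 genes were among the 67.6% of all genes whose groups did not overlap. Their responses exceeded the floxed ones by 2.12 for Cish, 1.51 for Socs1, 0.74 for Ptpn1 and 0.71 for Ptpn2 on the log2 scale (limma adjusted p = 2.50e-07, 5.37e-06, 1.01e-05 and 6.85e-05). Socs1 in floxed libraries had a difference of 0.13, which did not pass. With equal totals Pias3, Cbl and Pias1 passed with a response below the floxed one (-0.46, -0.31 and -0.22), as did Pias3 and Cbl with quantile normalization (-0.32 and -0.28) and Pias3 without floxed G-CSF replicate 3 (-0.37).

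Socs4 rose by 0.39 and lost its call with equal totals. The phosphatase Ptpn6 stood at 14693, 14999.6 and 14479 without and 14655, 17312 and 21975 with G-CSF, and its call (log2 0.27) was lost in 9 alternatives, 5 of which leave out 1 library, and turned to -0.18 with quantile normalization. The ubiquitin ligase Cbl, the STAT inhibitor Pias3 and the phosphatase Ptpn11 fell, at log2 -0.82, -0.69 and -0.22. The adaptor Sh2b3 was at -0.18, a call lost in 12 alternatives, 9 of which leave out 1 library. Socs2, Socs5, Socs6, Socs7, Pias1, Cblb and Usp18 did not pass, with log2 differences between -0.27 and 0.33. Of these, Pias1 passed with equal totals. Cblb passed with equal totals, with the replicate block and without LysMcre-labelled untreated replicate 1. Socs2 was low in both groups, with means of 18.7 and 15.7 normalized counts.

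Genes known to be induced through STAT proteins moved in one direction. All 16 of the 16 tested members of that list rose, of 18 listed, with a median log2 difference of 2.31, while Il10 and Timp1 were not tested. The lowest member was at 0.39 and 15 passed with equal totals. Il4ra, the interleukin 4 receptor, went from 3201, 3319.7 and 3108 to 76718, 84291 and 88911 normalized counts (log2 4.70, SE 0.07, limma adjusted p = 1.90e-16). Il1r2, whose promoter is printed above, went from 887, 931 and 862 to 16133, 19199 and 21259 (log2 4.39), and 2 predicted genes overlap it. The nuclear NF-kappaB partner Bcl3 and the AP-1 subunit Junb rose by 4.07 and 3.66. The promoter windows of Il4ra, Bcl3 and Junb held no TTCNNNGAA match. In these 4 genes each G-CSF library was at least 10 times above each untreated one. The response was larger than in floxed libraries in 12 of the 16, against 10.9% of all genes. This list, too, was chosen with earlier results of these data known.

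Chemokines, the attractants that neutrophils make for other neutrophils and for monocytes, followed. Of 13 tested members 7 rose and none fell (median 1.19). Cxcl2, which binds the same receptor as Cxcl3, went from 221, 142 and 137 to 11583, 15168 and 13263 normalized counts (log2 6.34, SE 0.19, limma adjusted p = 2.07e-13). Ccl3 went from 301, 263 and 162 to 1572, 1269 and 1336 (log2 2.56). In both genes every G-CSF library was higher, as was so for 33.6% of all genes tested. Of 16 tested inflammatory cytokines 10 rose and 2 fell (median 0.83). The macrophage growth factor Csf1 stood at 713, 639 and 580.3 without and 6676, 7258 and 10244 with G-CSF, where replicate 3 was the highest (log2 3.62, SE 0.17). Il1b, which encodes interleukin 1 beta, stood at 2280.0, 2307 and 1178 and 18526, 21415 and 19798, with untreated replicate 3 below the other 2 (log2 3.44, SE 0.19). Osm, a cytokine of the interleukin 6 family, and Tnfsf14, a ligand of the tumour necrosis factor family, rose by 2.91 and 2.56.

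Receptors by which neutrophils sense chemokines and microbes also rose more often than the background. Of 16 tested chemoattractant receptors 11 rose and 3 fell (median 0.75). Cxcr4, the receptor that holds neutrophils in the marrow, fell from 12022, 12839 and 12364 to 1481, 1451 and 1603 normalized counts (log2 -3.04, SE 0.05, limma adjusted p = 1.10e-15). Cxcr2, the receptor that draws neutrophils out of it, rose from 20746, 23716 and 20859 to 100426, 94864 and 99038 (log2 2.17). The 2 receptors thus moved in opposite directions, and neither overlapped between groups, as 67.6% of all genes did not. Its neighbour Cxcr1 rose by 4.17 and Ccr1 by 2.74. Of 24 pattern recognition and Fc receptors 17 rose and 6 fell (median 1.15). Tlr1, a receptor of bacterial lipopeptides, went from 118, 112 and 111 to 7421, 8072 and 8097 (log2 6.10, SE 0.07). The lipopolysaccharide receptor genes Cd14 and Tlr4 rose by 4.76 and 3.43, and the lectin gene Clec4n, whose untreated libraries spread from 70.6 to 264.0, by 4.80. Adhesion molecules went the other way on balance, with 5 of 15 higher and 9 lower (median -0.46): Ceacam1, Itgb2l and Icam2 fell, at log2 -1.97, -1.83 and -1.76 and Selplg, the ligand of P-selectin, rose by 1.60.

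Granule proteins are made in waves as neutrophils mature, the primary granules first and the secondary and tertiary granules later. Of 18 secondary and tertiary granule genes 12 fell and 4 rose (median -0.74). Lactoferrin, Ltf, stood at 201163, 199713 and 268034 normalized counts without G-CSF and 42721, 33627 and 36839.9 with it (log2 -2.56, SE 0.14, limma adjusted p = 4.16e-10). Camp, the cathelicidin gene, went from 48339, 45919 and 59837 to 10843, 7646 and 8331 (log2 -2.53), and Ceacam10 fell, at log2 -2.26. Each untreated library of these genes was above each G-CSF library, which held for 34.0% of all genes tested. Lrg1, a leucine-rich granule glycoprotein, was the largest exception, at 6487, 6681 and 8935 and 71161, 75211 and 78648 (log2 3.36). Of 8 tested primary granule genes 5 rose and 1 fell (median 0.56). The cathepsin Ctsc, which activates granule proteases, rose by 2.24, and the proteinase 3 gene Prtn3 and Ms4a3 by 0.97 and 0.94, while the serine protease Prss57 fell, at log2 -1.75. With equal totals 3 of these 8 rose and 1 fell.

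In the phagocyte NADPH oxidase list, the enzyme that makes superoxide, 5 of 9 members fell and 2 rose (median -0.19). Cybb, the catalytic subunit, stood at 38215, 34729 and 42936 and 12919, 10568 and 11329.8 normalized counts (log2 -1.73, SE 0.09, limma adjusted p = 1.59e-10), the activator Ncf1 at 59866, 63950.5 and 71878 and 17429.9, 20094 and 22945 (log2 -1.70), and the proton channel Hvcn1 fell, at log2 -2.48. The GTPase gene Rac1 rose by 0.45. The groups of Cybb, Ncf1 and Hvcn1 did not overlap, which held for 34.0% of all genes in that direction. Of 15 S100 and annexin genes 7 rose and 5 fell, or 5 and 5 with equal totals and 4 and 5 with quantile normalization; Anxa7 and Anxa11 rose by 1.80 and 0.84, and Anxa6 and the resolution mediator Anxa1 fell, at log2 -1.14 and -0.78. The list of granulocyte lineage factors was split as well, with 6 of 17 higher and 7 lower (median -0.19). It also counts the granule gene Ltf, which fell. Cebpe, the factor of late granulocyte maturation, fell from 5437, 5548 and 6924 to 624, 504 and 571 (log2 -3.39, SE 0.13), and Cebpb, the factor of emergency granulopoiesis, rose from 3085, 3253 and 2669 to 26498, 29191 and 30140.5 (log2 3.25, SE 0.09). These 2 factors of one family moved apart by more than 6 log2 units. Id1, which blocks basic helix-loop-helix factors, rose by 3.30.

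**Figure D4:**
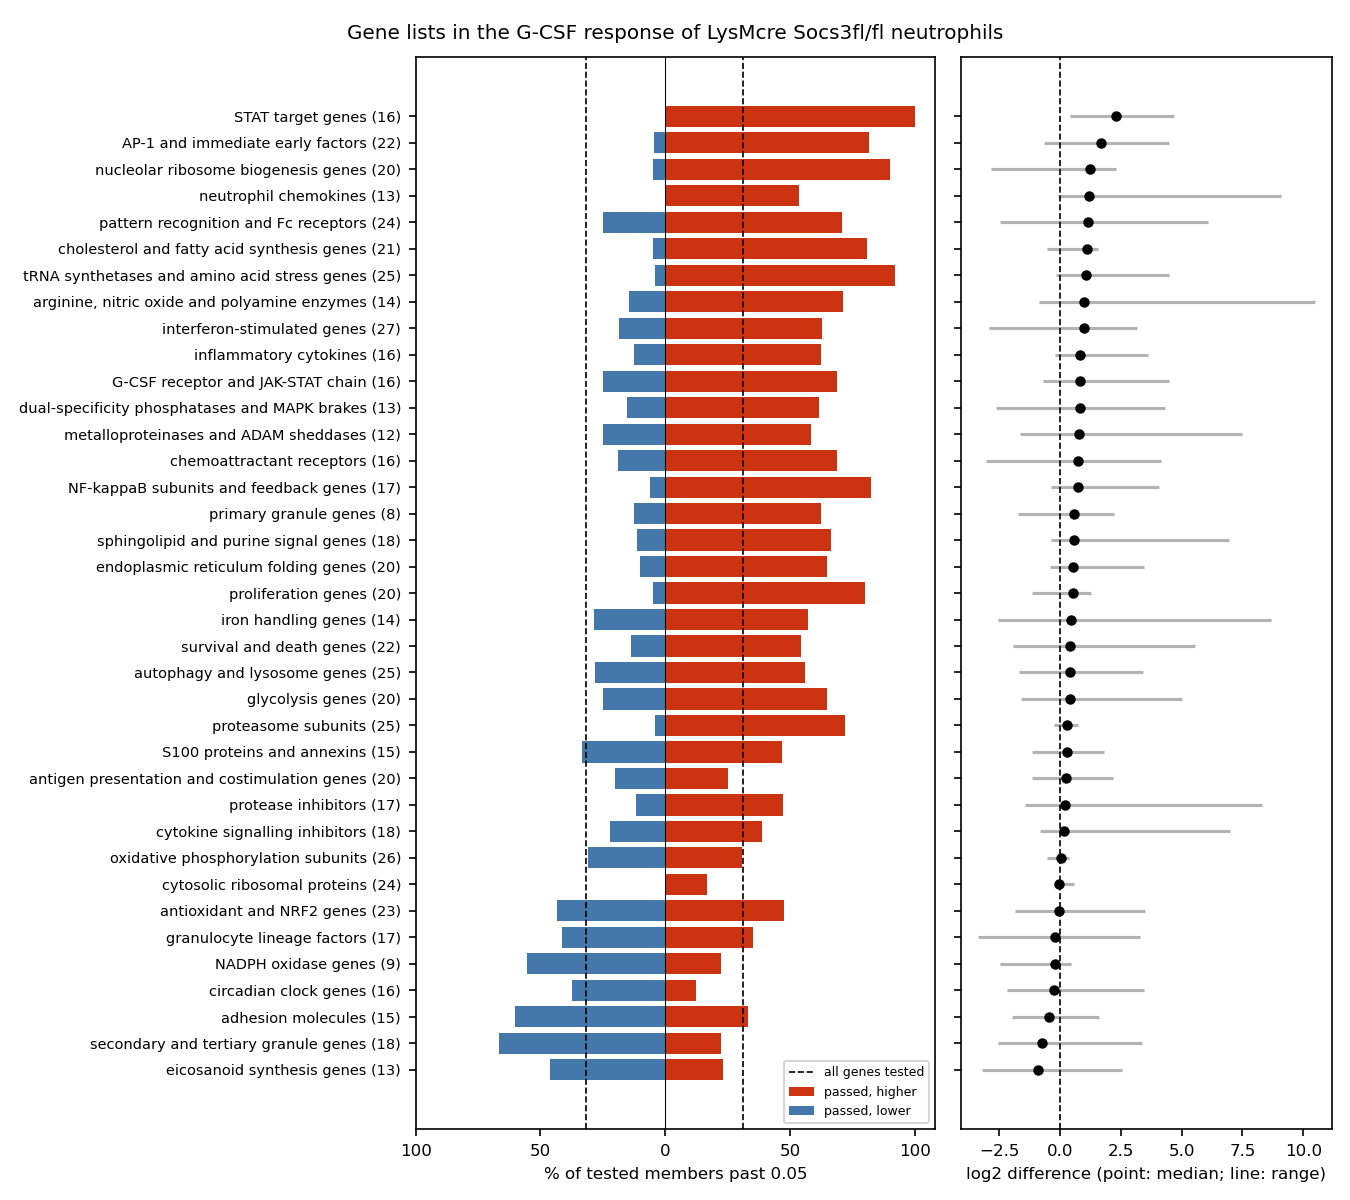
The 37 pathway lists, with the number of tested members in brackets, ordered by their median log2 difference; left, the share of tested members called higher (red, to the right) and lower (blue, to the left) at a limma adjusted p under 0.05, with dashed lines at the shares of all genes, 31.1% and 31.6%; right, the median (point) and range (line) of the log2 differences. In 30 of the 37 lists the share called higher is above that of all genes, and in 8 the share called lower is. The lists were chosen with earlier results of these data known, so this tally is a description. Some genes, such as Ltf, Bcl3 and Junb, belong to several lists, so the lists are not separate.

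Secreted and shed proteins were next. Among protease inhibitors 8 of 17 tested members rose and 2 fell, with a median of 0.21 that was -0.04 with equal totals. Wfdc18, a neighbour and relative of Wfdc17, had 6 reads over the untreated libraries and stood at 242, 236 and 244 with G-CSF, the serpin Serpinb2 rose by 2.04 from low values with groups that overlap, and the cystatin Cstb by 1.56. Of 12 metalloproteinases and sheddases 7 rose and 3 fell (median 0.77). Besides Mmp19, Adam9 went from 441, 393 and 345 to 4921, 4979.6 and 4763 normalized counts (log2 3.64, SE 0.08), and Mmp14 and Adam19 rose by 2.35 and 2.29. Eicosanoid enzymes, which make and break prostaglandins and leukotrienes, fell in 6 and rose in 3 of 13 tested members (median -0.92). The inducible cyclooxygenase Ptgs2 rose by 2.55, while the prostaglandin E synthase Ptges, the thromboxane synthase Tbxas1 and the prostaglandin-degrading Hpgd fell, at log2 -2.47, -2.42 and -3.19. Among sphingolipid and purine signal genes 12 of 18 rose and 2 fell (median 0.55). The sphingosine kinase Sphk1 stood at 3.16, 2.58 and 7.43 without and 594, 606 and 648 with G-CSF, and the adenosine receptor Adora2b, the nucleotide receptor P2ry2 and the ectonucleotidase Entpd1, CD39, rose by 3.73, 2.81 and 2.36.

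Metabolic genes followed the same background comparison. For the enzymes of arginine, nitric oxide and polyamines 10 of 14 tested members rose and 2 fell (median 0.98), among them, beside Nos2, the arginase Arg2 from 1955, 2076 and 1769.6 to 7294, 7066 and 7209 normalized counts (log2 1.90) and the spermidine synthase Srm (log2 2.83). Arg1 was low throughout, with 11 reads over the untreated libraries and 53.2, 31.8 and 29.0 normalized counts with G-CSF (log2 3.13, SE 0.55). Iron handling genes rose in 8 and fell in 4 of 14 tested members, or 6 and 5 with equal totals. Fth1, the ferritin heavy chain, went from 32298, 30944 and 26976 to 229140.0, 221028 and 230142 (log2 2.92, SE 0.08, limma adjusted p = 1.39e-13), and Hmox1, the heme oxygenase, rose by 2.45. Antioxidant and NRF2 genes rose in 11 and fell in 10 of 23, or in 10 and 12 with equal totals. The cystine transporter Slc7a11 went from 1643, 1364 and 1206 to 13533, 15849 and 17483, and the thioredoxin reductase Txnrd1 and the glutathione enzyme Gclm rose by 3.07 and 2.60.

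Glycolysis genes rose in 13 and fell in 5 of 20 (median 0.39), or 10 and 6 with equal totals and 9 and 7 with quantile normalization. The glucose transporter Slc2a1 went from 613, 684 and 629 to 18885, 21246 and 22101 normalized counts (log2 5.01, SE 0.07, limma adjusted p = 1.12e-16), and 3 other tested features overlap it. Pfkfb3, whose product drives phosphofructokinase, the phosphofructokinase Pfkl and the lactate exporter Slc16a3 rose by 2.73, 2.55 and 1.67. Subunits of oxidative phosphorylation moved little, with 8 of 26 higher and 8 lower between -0.54 and 0.38, and with equal totals none was higher and 17 were lower. Atp5c1 and Uqcrfs1 fell, at log2 -0.54 and -0.46; Sdhc rose by 0.38, a call lost with equal totals, and Ndufb5 fell, at log2 -0.33, a call lost in 8 alternatives, 5 of which leave out 1 library. Cholesterol and fatty acid synthesis genes rose in 17 of 21 and fell in 1 (median 1.10), led by Idi1 (1.58), the regulator Srebf1 (1.52), Lss (1.49) and Sqle (1.40).

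Genes of protein synthesis divided by their part in it. Nucleolar factors that build ribosomes rose in 18 of 20 (median 1.24), among them Nop58 (2.31), Gnl3 (2.28) and Dkc1 (1.67). The one that fell, Polr1a, encodes the largest subunit of RNA polymerase I and went from 3865, 4304 and 3969 to 512, 598 and 607 normalized counts (log2 -2.82). Aminoacyl tRNA synthetases and amino acid stress genes rose in 23 of 25 and fell in 1 (median 1.05). The transporter subunits Slc7a5 and Slc3a2, which together carry large amino acids, went from 595, 459 and 338 to 9582, 10452 and 10653 and from 1858, 1634 and 1562 to 9667, 9908 and 10369. In both every G-CSF library was higher, as in 33.6% of all genes tested. Aars and Asns rose by 1.99 and 1.53. The ribosomal proteins themselves moved little: 4 of 24 rose and none fell with the deposited scaling, while 1 rose and 15 fell with equal totals and 1 rose and 9 fell with quantile normalization. Those 4, with the scaling in which each lost its call, were Rps9 (0.57, quantile), Rpl14 (0.47, equal totals), Rps2 (0.36, both) and Rpl22 (0.25, both, and on leaving out any 1 of 4 libraries). Folding genes of the endoplasmic reticulum rose in 13 and fell in 2 of 20 (median 0.54), with Xbp1, its main transcription factor, at 3.44, Atf6 at 1.50, Sdf2l1 at 1.40 and the chaperone Hspa5 at 1.33. Proteasome subunits rose in 18 of 25 and fell in 1, but 6 rose and 6 fell with equal totals; Psmc5 (0.72) was the highest, before Psmc6 (0.63), Psmd14 (0.63) and Psmd1 (0.61).

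Genes of fast responses rose in most members of their lists. AP-1 factors and other immediate early genes rose in 18 and fell in 1 of 22 (median 1.67). Ier3 went from 427, 401 and 360.2 to 8289, 9110.0 and 9171 normalized counts (log2 4.48, SE 0.06), and Egr2 and Maff rose by 3.39 and 2.89. NF-kappaB subunits and feedback genes rose in 14 and fell in 1 of 17 (median 0.75), with Birc3, Relb and the inhibitor Nfkbia at 1.72, 1.64 and 1.61. Phosphatases and other brakes of MAP kinases rose in 8 and fell in 2 of 13 tested (median 0.82). Within this list Dusp16 went from 103, 121 and 112 to 2008, 2427 and 2375 (log2 4.32) and Dusp6 from 1651, 1901 and 1305 to 232, 262 and 276 (log2 -2.64), in opposite directions. Neither overlapped between groups, as 67.6% of all genes did not. Spry2 and Dusp5 rose by 2.62 and 2.37. Of 16 circadian genes 6 fell and 2 rose (median -0.26): Bhlhe40 and Nfil3, repressors that cytokines also induce, rose by 3.44 and 2.43, and Per2 and Dbp fell, at log2 -2.20 and -1.09.

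Survival and death genes rose in 12 and fell in 3 of 22 tested members (median 0.42), and the 4 named ones act in opposite ways. Bcl2l1 and Mcl1, which protect cells, went from 872, 921 and 922 to 6919, 7699 and 8089 and from 17137, 17134 and 15357 to 61917, 64979.8 and 69847 normalized counts (log2 3.06 and 1.99). Bcl2l11, which promotes death, went from 1026, 1062 and 856 to 4700.4, 5363 and 5504 (log2 2.40), and the death receptor Tnfrsf10b from 10.5, 6.88 and 23.2 to 547, 642 and 632 (log2 5.54). All 4 were separate between groups, as 67.6% of all genes were. Autophagy and lysosome genes rose in 14 and fell in 7 of 25, or 11 and 10 with equal totals, with the cathepsins Ctsl and Ctsb at 3.42 and 2.55, Lamp2 at 2.45 and the hexosaminidase Hexa at -1.69. Proliferation genes rose in 16 of 20 and fell in 1 by modest amounts (median 0.52, highest 1.26), among them Ccne1 (1.26), Mcm2 (1.16) and Mcm3 (0.81), while the thymidine kinase Tk1 fell, at log2 -1.17. Interferon-stimulated genes rose in 17 and fell in 5 of 27 tested (median 0.97): Oas2, Gbp2 and Zbp1 rose by 3.16, 3.09 and 3.03, and Cmpk2 fell, at log2 -2.91 from 1734, 1298 and 1612 to 240.4, 167 and 209. Genes of antigen presentation and costimulation rose in 5 and fell in 4 of 20, or 3 and 9 with equal totals and 5 and 8 with quantile normalization. The checkpoint ligand Cd274 and the costimulator Cd80 rose by 2.16 and 1.20, Psmb9 fell, at log2 -1.14, and Pdcd1lg2 rose by 1.07 from under 13 normalized counts, a call lost with equal totals and on leaving out any 1 of 4 LysMcre-labelled libraries.

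Ranked by normalized counts per kilobase of exon, S100a9 and S100a8 were first and second in both groups, and both rose (log2 0.74 and 0.76). Each gene had a fixed exon length, such as 3469 bases for Fth1 and 2196 for Srgn. The length of the transcripts present was not measured. A gene with transcripts shorter than its exon length is ranked too low, so ranks are only a rough comparison between genes. Below them the order changed. Retnlg moved from the fourth place to the 27th, Camp from the sixth to the 68th and Ltf from the seventh to the 78th. Wfdc17, at rank 2204 without G-CSF, was the third with it, and the interferon-inducible membrane protein genes Ifitm1 and Ifitm2 came from ranks 536 and 166 to 4 and 10 (log2 6.26 and 3.62). Fth1 came from rank 71 to 8 and Srgn, the granule proteoglycan, from 284 to 9 (log2 4.26).

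Some genes that rose at least 4-fold were neighbours. Among 11344 protein-coding genes with a position in the GENCODE M21 annotation of the same build, mm10, 467 rose and 396 fell at least 4-fold, and 19 runs of 3 or more consecutive tested genes all rose, with 65 genes in them, while 5 runs with 15 genes all fell. The chemokine genes Cxcl3, Cxcl1 and Cxcl2 with Mthfd2l and Epgn form one run on chromosome 5 (90786103 to 91035215), at log2 9.08, 2.22, 6.34, 2.04 and 7.38. Ccl3 and Ccl4 with Wfdc17 and Wfdc18 form another on chromosome 11 (83647844 to 83711348). Further runs that rose were Trim30b, Trim30c, Trim30a and Trim30d on chromosome 7 (104355382 to 104507849), Ifitm5, Ifitm2 and Ifitm1 on the same chromosome (140948958 to 140969825), P2ry14, P2ry13 and P2ry12 on chromosome 3 (59113855 to 59262871), and Tns1, Rufy4, Cxcr2 and Cxcr1 on chromosome 1 (73910231 to 74194631). The keratin genes Krt7, Krt86 and Krt83 on chromosome 15 (101411043 to 101491512) and the lectin genes Clec12a, Clec12b and Clec1b on chromosome 6 (129342691 to 129409335) fell together. Near-identical neighbours such as the Trim30 genes may share reads, and of 223 named genes 46 overlap another tested gene, so that these values are uncertain.

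Each list of markers of other cells that a marrow sort could hold summed to at most 0.114% of all normalized counts in any of the 6 libraries, and their part in the results was not tested. In bulk libraries fewer cells of a type and less RNA per cell cannot be told apart. The 10 B cell markers summed to 12979 to 18563 normalized counts without and 11031 to 17689 with G-CSF, and 2 of them fell and none rose, Ebf1 (-0.51) and Cd79a (-0.37), calls lost on leaving out any 1 of 3 or 4 libraries. The 11 monocyte and macrophage markers summed to 21248 to 23439 and to 16192 to 18768; 3 rose, among them Cd68 (1.13), and 2 fell, Ly6c2 (-2.16) and Cx3cr1 (-1.07). Tested T and NK cell markers, 9 of 11, summed to 528 to 577 and to 257 to 311, with 1 that rose, Cd5 (0.91, a call lost in 11 alternatives, 7 of which leave out 1 library), and 1 that fell, Cd3d from 269, 285 and 332 to 42.8, 33.0 and 34.4. Platelet markers, 9 in number, summed to 3471 to 4115 and to 1090 to 1451, with 3 lower, Itgb3 from 3069.8, 2634 and 3195 to 380.2, 326 and 297, Gp1bb (-1.55) and Gp1ba (-0.77, a call lost on leaving out any 1 of 3 libraries), and none higher.

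Progenitor markers summed to 3766 to 4339 without and 7977 to 8404 with G-CSF, with 3 of 8 tested higher and 3 lower. Kit, the stem cell factor receptor, went from 832, 762 and 807 to 6156, 6356 and 5986 normalized counts (log2 2.95, SE 0.07, limma adjusted p = 1.11e-14), and made up most of the sum with G-CSF. Ly6a and Hoxa9 rose by 2.77 and 1.01, and Erg fell, at log2 -2.15. Among 11 eosinophil, basophil and mast cell markers, with sums of 2852 to 3886 and 3672 to 3806, Siglecf rose (1.61) and none fell. Of 6 tested dendritic cell markers, with sums of 708 to 772 and 608 to 631, Clec9a (-1.78) and Cd209a (-0.76) fell. Erythroid markers, 7 tested, did not pass; their sums ran from 201 to 1655 without and from 194 to 247 with G-CSF. Of 6 tested stroma and endothelium markers Col1a1 fell (-0.76), with sums of 184 to 285 and 132 to 233. No listed marker with a row was at 0 in all 6 libraries. Since every deposited row held at least 121 reads over the 12 libraries, this says little of the cells. The defining markers Klrb1c and Ncr1 of NK cells and Zbtb46, Xcr1 and Batf3 of dendritic cells have no row. Nor have Klf1 and Epor of erythroid cells, Mecom of progenitors, and Col3a1, Lepr, Pdgfra, Tek and Emcn of stroma and endothelium. A missing row does not show that a gene was silent. Of the neutrophil markers 5 of 13 rose and 7 fell, or 2 and 8 with quantile normalization; Retnlg, a resistin-like secreted protein, went from 133406, 148917 and 156243 to 17703, 16562 and 17382 (log2 -3.08).

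The last comparison set this response against that of the floxed libraries, with the test of the difference itself. Genes called higher in LysMcre-labelled libraries were also called higher in floxed ones in 3002 cases, 69.4% of the former and 89.3% of the latter list, and genes called lower in 3111 cases, 70.8% and 90.9%. Only 41 genes were called higher in the one and lower in the other, and 26 the reverse. The difference between the responses passed an adjusted p of 0.05 in limma with 1513 genes above 0 (10.9%) and 1599 below 0 (11.5%). With equal totals the counts were 896 and 2994, so that 23.0% of them lay above 0 against 48.6%. Among the 15 largest rises 10 had a response above the floxed one and none below, and among the 15 largest falls 12 were below it and none above. These genes were chosen by the LysMcre-labelled difference, which also enters this contrast, so the choice favours such a tally and it is given as a description. Among the rises, Steap4 passed above 0 in 7 alternatives (0.30 to 0.34), Sult6b2 in 2 (1.43 and 1.69) and Ambp in 1 (1.10), and Igfbp6 passed below 0 when floxed untreated replicate 2 was left out (-1.15).

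The largest differences above 0 were in genes that barely moved or moved less in floxed libraries. Cxcl3 rose by 9.08 against 4.69 (difference 4.39, SE 0.26, limma adjusted p = 4.74e-08) and Mmp19 by 7.47 against 3.52 (difference 3.95, SE 0.21, limma adjusted p = 1.61e-08). Ppm1j and Saa3 had differences of 3.35 and 2.94, and Peg10, a retrotransposon-derived gene, went from 6.31, 3.44 and 6.50 to 64.7, 74.3 and 71.9 normalized counts, with 3.51 against 0.56 (difference 2.95). Kif1a, a kinesin motor, Pla1a, a phospholipase, and Sphk1 had 6, 9 and 14 reads in all over the untreated LysMcre-labelled libraries and stood at 225, 204 and 209, 95.9, 113 and 171 and 594, 606 and 648 with G-CSF; their differences of 3.64, 3.41 and 3.39 depend on the pseudocount. At the other end the homeobox gene Lhx1 fell from 744, 997 and 705 to 26.6, 29.5 and 33.3, at log2 -4.72 against -2.29 in floxed libraries (difference -2.42, SE 0.19, limma adjusted p = 6.32e-07). Dnah6, a dynein heavy chain, went from 416, 496 and 399 to 37.0, 23.6 and 36.5 (difference -2.40), the coagulation factor F12 from 59.9, 86.8 and 78.9 to 5.78, 10.6 and 6.44 (-2.38) and the sodium channel subunit Scn2b from 121, 103 and 108 to 3.47, 3.54 and 7.52 (-2.36). Mmp23, RP24-325N9.4, Aplnr and Sstr4, with differences of -2.84, -2.78, -2.57 and -2.42, had 1 to 5 reads in all with G-CSF. In each of these 16 genes, chosen for the size of this difference, the LysMcre-labelled response had the same sign as the floxed one and was farther from 0.

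**Figure D5:**
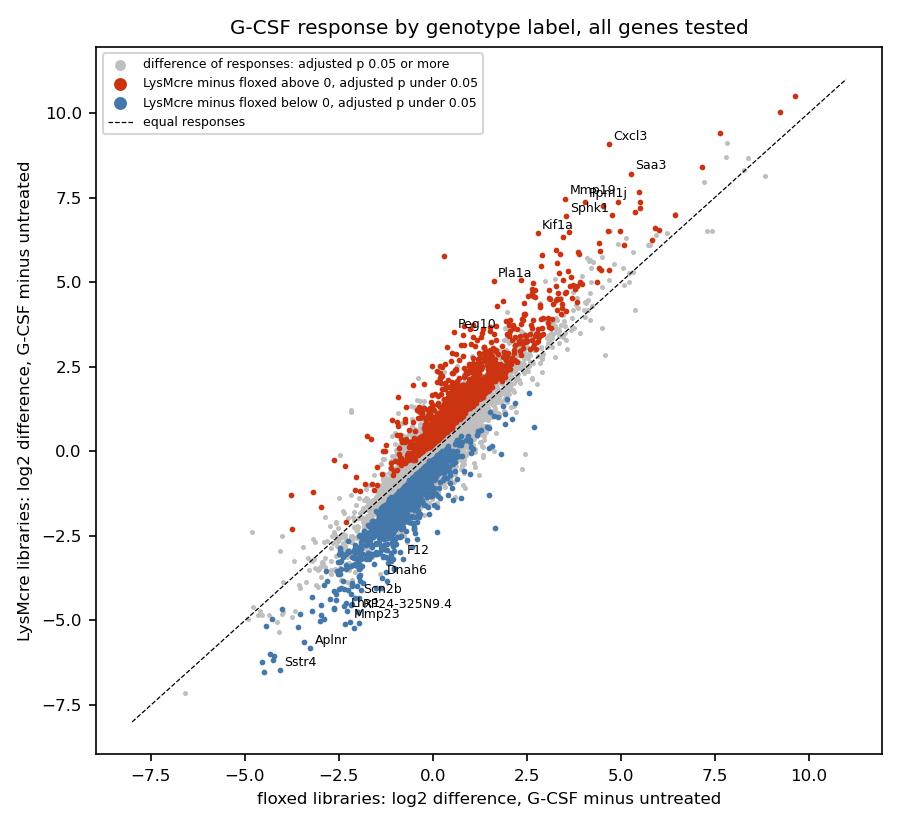
Log2 difference, G-CSF minus untreated, of 13915 genes in floxed (horizontal) and LysMcre-labelled libraries (vertical); red points have a difference between the responses above 0 and blue points below 0 at a limma adjusted p under 0.05, and the dashed line marks equal responses. The 1513 red genes lie above the line and the 1599 blue genes below it. Cxcl3 (4.69 and 9.08) lies above it and Sstr4 (-4.06 and -6.48) below it.

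By list and with the deposited scaling, the shares with a response above the floxed one ran from none to 12 of 16 STAT targets, against 10.9% of all genes. Next came 13 of 20 glycolysis genes, 11 of 17 NF-kappaB genes and 14 of 24 pattern recognition and Fc receptors. Then came 7 of 13 MAP kinase brakes. After them, at equal shares, came 11 of 22 AP-1 and immediate early factors and 7 of 14 arginine, nitric oxide and polyamine enzymes. In the same order, from the STAT targets on, 0, 2, 0, 3, 1, 1 and 1 members of these lists lay below the floxed response. The response lay below the floxed one in 11.5% of all genes. It did so in 9 of 18 secondary and tertiary granule genes, 4 of 9 oxidase genes, 5 of 13 eicosanoid genes, 5 of 15 adhesion molecules, 7 of 23 antioxidant genes and 5 of 17 granulocyte lineage factors. In the same order, 1, 1, 2, 4, 9 and 2 members lay above it, so more antioxidant genes lay above than below. Of the 37 pathway lists, oxidative phosphorylation subunits, cytosolic ribosomal proteins and proliferation genes had no member that passed in either direction. With equal totals 896 of all genes lay above 0 and 2994 below, and counts by list are not given for that scaling.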

How the data were processed

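RNA of 12 neutrophil samples was sequenced as total RNA, 3 per group. The deposited values were read counts divided by 1 size factor per library, a normalized signal, as read from the values: 100% of them were whole multiples of 1 step per library (tolerance 0.01), and reads were recovered from them. Per the submitters' processing notes the authors mapped to build mm10; the aligner, the counting tool, its annotation and any use of strand are not given in the sources used. Of the table's columns, 2 were empty and carried no sample, and 17 row names had turned into dates. In the table's header, untreated LysMcre-labelled replicate 2 is numbered 3. Positions came from GENCODE M21, which held 13541 of the row names and not 394, and promoters from RefSeq.

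The test was limma 3.58.1 (R 4.3.3) with a trended prior on log2(value + 1), fitted to all 4 groups with 8 residual degrees of freedom and Benjamini-Hochberg adjustment over 13915 genes at 0.05, and differences are on that scale, which understates changes of low genes. The test had been laid out for normalized values that were not whole, and since whole reads were recovered, edgeR 4.0.16 and DESeq2 1.42.0 were run on them; edgeR called 4342 genes higher and 4392 lower. The fit was tested on simulated data. Other scalings, pseudocounts, filters, priors, a replicate term and leaving out each library were also run. Sums and figures used Python 3.11.15, pandas 2.3.3, numpy 2.4.6 and matplotlib 3.10.9.

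Named genes were Socs3, Lyz2 and Csf3r, the 15 largest rises and falls with groups that do not overlap and a higher group mean that reached 50, the 8 largest differences between responses in each direction, all members of the receptor chain and inhibitor lists, and up to 4 members per other list past 0.05 with the largest differences. The genes of the level ranking and of the runs of neighbours were chosen after their values were seen. A few listed genes are counted with their lists and not reported here by name. Members and lists were chosen with earlier results of these data known. Replicates of a group differed by more than sampling noise, at a chi-square per row of 3.55 to 12.87.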

Additional observations from a re-analysis of the deposited data

Results flagged for a closer look

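A difference between the G-CSF responses of LysMcre-labelled and floxed libraries, by the interaction term of limma at an adjusted p of 0.05, marks each result below. It passed for 1513 genes above 0 and 1599 below 0. Values are differences of log2 responses, LysMcre-labelled minus floxed. No check for single outlying libraries applies to groups of 3.

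For the genes of the labels the differences were 0.56 for Socs3 and -1.14 for Lyz2. Among the largest rises they were 4.39 for Cxcl3, 3.95 for Mmp19, 3.35 for Ppm1j, 2.94 for Saa3, 2.19 for Ccl4, 1.88 for Tnfsf9, 1.77 for Tgm1, 1.25 for Entpd3, 0.86 for Nos2 and 0.79 for Lipg. The calls of Nos2 and Lipg were lost in 15 and 13 alternatives. Among the largest falls they were -2.84 for Mmp23, -2.57 for Aplnr, -2.42 for Sstr4, -2.23 for Faim2, -2.07 for Fam71b, -2.01 for Filip1, -1.92 for Nat8l, -1.68 for Lct, -1.67 for Ascl2, -1.60 for Has2, -0.71 for Sntb1 and -0.69 for Itih5. The calls of Ascl2, Fam71b, Has2 and Faim2 were lost in 13, 13, 11 and 9 alternatives.

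Other genes with the largest differences were 3.64 for Kif1a, 3.41 for Pla1a, 3.39 for Sphk1 and 2.95 for Peg10 above 0, and -2.78 for RP24-325N9.4, -2.42 for Lhx1, -2.40 for Dnah6, -2.38 for F12 and -2.36 for Scn2b below 0. In the receptor chain the differences were 0.95 for Jak2, 0.90 for Stat5a, 0.53 for Syk, 0.45 for Stat3, 0.45 for Lyn, 0.33 for Gab2 and 0.30 for Jak1, where the calls of Gab2 and Jak1 were lost in 9 and 2 alternatives, both scalings among them. Of the inhibitors, the values were 2.12 for Cish, 1.51 for Socs1, 0.74 for Ptpn1 and 0.71 for Ptpn2.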

How the results depend on the processing

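The counts of called genes stayed within 1.5 times their main values under every alternative run except equal library totals, which gave 2864 genes higher with G-CSF in LysMcre-labelled libraries and, for the difference between responses, 896 above and 2994 below 0. Leaving out 1 library at a time gave 4059 to 4380 higher, 4065 to 4467 lower, and 1287 to 1590 and 1333 to 1580 for the difference. DESeq2 called 4181 and 4182. A mean of at least 10 over the 6 LysMcre-labelled libraries, chosen after seeing the data, gave 4320 and 4370. The deviations of same-numbered untreated and G-CSF libraries from their group means correlated at 0.214, -0.032 and 0.03 (floxed 0.321, 0.199 and 0.061). For libraries of unlike number the correlations ran from -0.179 to 0.163 (floxed -0.282 to 0.152). These values do not settle whether the numbers mark pairs, and the main test had no replicate term. With the replicate block 4315 and 4377 genes were called, with 1426 and 1541 for the difference and 3301 and 3372 in floxed libraries.

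Of 215 called among 223 named genes, 17 lost the call in some alternative: Stat5b, Grb2, Sos1, Socs4, Ptpn6, Sh2b3, Sdhc, Ndufb5, Rps9, Rpl14, Rps2, Rpl22, Pdcd1lg2, Ebf1, Cd79a, Cd5 and Gp1ba. With replicates left out 1 at a time, LysMcre-labelled unless called floxed, calls were lost for Sos1 without untreated 2 and 3 and G-CSF 2 (-0.17 to -0.16), for Ptpn6 without untreated 1, 2 and 3 and G-CSF 2 and 3 (0.11 to 0.29), for Sh2b3 without floxed untreated 1, 2 and 3 and untreated 1, 2 and 3 and floxed G-CSF 3 and G-CSF 1 and 2 (-0.19 to -0.09), for Ndufb5 without untreated 1 and 2 and floxed G-CSF 3 and G-CSF 2 and 3 (-0.33 to -0.18), for Rpl22 without untreated 2 and 3 and G-CSF 1 and 2 (0.19 to 0.27). They were also lost for Pdcd1lg2 without untreated 1, 2 and 3 and G-CSF 1 (0.82 to 1.15), for Ebf1 without untreated 2 and 3 and G-CSF 1 (-0.48 to -0.35), for Cd79a without untreated 2 and 3 and G-CSF 1 and 3 (-0.40 to -0.27), for Cd5 without floxed untreated 2 and untreated 1, 2 and 3 and floxed G-CSF 2 and G-CSF 1 and 2 (0.72 to 1.02), for Gp1ba without untreated 1 and 2 and G-CSF 2 (-0.73 to -0.59). Differences between responses lost their call on leaving out any 1 of several libraries for Nos2 (0.67 to 0.91, 9 libraries), Lipg (0.65 to 0.84, 9 libraries), Ascl2 (-1.80 to -1.40, 8 libraries), Fam71b (-2.20 to -1.54, 9 libraries), Has2 (-1.71 to -1.12, 8 libraries), Faim2 (-2.20 to -1.87, 6 libraries) and Gab2 (0.24 to 0.32, 6 libraries). Directions turned for Stat5b (-0.077 with equal totals, -0.083 with quantile normalization), Grb2 (-0.0041 and -0.060), Ptpn6 (-0.18 with quantile normalization) and Rpl22 (-0.0075 with equal totals); the cause was not tested. With 3 libraries per group and 19495754 to 26472118 recovered reads each, values of genes with under 10 reads in a group rest on the pseudocount.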
